A study of Rattus norvegicus with 4 samples.

Results

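The cells described here are the cardiomyocyte nuclei of 1 of 4 droplet libraries made from rat heart, and they are described through genes outside the contractile apparatus and fuel metabolism. They were chosen by measured values. A barcode of the library whose barcodes end in 1 (library 1) was kept when it had at least 1000 UMIs (unique molecular identifiers, which count captured RNA molecules), at least 300 genes and at most 10% of its UMIs from mitochondrially encoded genes. A kept barcode counted as a cardiomyocyte nucleus when the 6 genes Ryr2, Rbm20, Trdn, Mlip, Fhod3 and Myom2 together gave at least 10 UMIs from at least 3 of the genes and at least 1% of its UMIs. This held for 2969 of the 5958 kept barcodes of library 1, or 49.8% (95% Clopper-Pearson interval 48.6 to 51.1%, counting error only), out of 10174 barcodes in the library and 48637 in the series. The other 2989 kept barcodes of library 1 are the comparison group.

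The study isolated nuclei from the infarct zone of Sprague Dawley rats, without a genetic alteration in the labels. Its 4 samples are a Sham sample and 3 myocardial infarction samples with 1, 6 and 24 hours in the labels. Reperfusion is the word in the treatment labels, and ligation of the left anterior descending artery is what the design text speaks of. The number of animals per sample is not given in the sources used here, and no source ties a barcode suffix to a sample, so the libraries are called 1 to 4 and library 1 has no known treatment. Each library is a single sample. No comparison below therefore has a replicate check or a p-value, and every interval covers counting error only.

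Cardiomyocytes are the contractile cells of the heart. A voltage-gated sodium current starts each beat, L-type calcium current triggers calcium release from the sarcoplasmic reticulum, and potassium currents end the action potential. Intercalated discs couple neighbouring cells, costameres tie the contractile lattice to the membrane, and muscle ubiquitin ligases remove worn proteins. A small group of transcription factors, among them the MEF2, GATA and T-box families and the SRF cofactor myocardin, is known to run this programme.

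Levels are in CPM, the UMIs of a gene summed over the nuclei of a group and scaled to the group's total without the 6 choosing genes. A gene was measured when both groups together gave at least 30 UMIs. It is called higher or lower here when the CPM of the 2 groups differed at least 2-fold. Of 12277 measured genes, 1497 (12.2%) were higher in the cardiomyocyte nuclei and 4911 (40.0%) were lower. Because the choosing genes come from the same cells, these shares and all values against the other barcodes are descriptions, and nothing is inferred from them. The median gene was 0.42 lower on the log2 scale (CPM + 10) in the cardiomyocyte nuclei, and list medians are to be read against that value of -0.42. Counts of higher and lower genes in a list are likewise to be read against 12.2 and 40.0% of all measured genes. Genes named as the highest or lowest of a list were ranked by this log2 difference and not by level. Of all called genes 23.4% were higher. After scaling to the median gene instead, 2518 (20.5%) were higher and 2890 (23.5%) lower, so that 46.6% of called genes were higher.

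Promoters of the genes that were at least 4-fold higher are shown first, because several hold a MEF2 consensus, a sequence bound by muscle transcription factors. RefSeq promoter windows on GRCr8, from 250 bases before to 50 bases after each gene's start, existed for 527 of those 796 genes and for 9133 of the 12277 measured genes. A MEF2 consensus match on either strand lay in 12 of the 527 windows, or 2.28%. The share was 0.372% over the measured genes, 0.605% over all 27456 windows and 0.166% over genes at least 4-fold lower. The 10 of these 12 genes that are not on the fuel, sarcomere, ERR or choosing lists are printed here 5′ to 3′ in the direction of the gene, with the match in capitals and 20 bases on either side.
Asb18: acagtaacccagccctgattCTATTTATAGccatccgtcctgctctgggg
Hspb3: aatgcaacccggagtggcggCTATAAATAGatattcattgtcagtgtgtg
Hspb7: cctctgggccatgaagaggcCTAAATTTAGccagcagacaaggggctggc
Lrrc39: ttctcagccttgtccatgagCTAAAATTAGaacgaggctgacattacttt
Ppp1r3a: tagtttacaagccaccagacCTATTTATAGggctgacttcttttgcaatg
Smpx: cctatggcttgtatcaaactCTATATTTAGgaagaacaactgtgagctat
Speg: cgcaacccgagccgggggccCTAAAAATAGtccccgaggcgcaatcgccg
Tcea3: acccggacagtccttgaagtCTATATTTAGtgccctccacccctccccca
Trim72: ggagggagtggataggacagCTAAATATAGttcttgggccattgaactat
Xirp2: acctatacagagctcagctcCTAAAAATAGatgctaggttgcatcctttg
The windows come from RefSeq, build GRCr8, which no source names as the build of the counts, and lie at Asb18 chr9:98043538-98043587 on the minus strand, Hspb3 chr2:47029187-47029236 on the minus strand, Hspb7 chr5:159010643-159010692 on the plus strand, Lrrc39 chr2:207201012-207201061 on the plus strand, Ppp1r3a chr4:43946270-43946319 on the minus strand, Smpx chrX:41107209-41107258 on the minus strand, Speg chr9:84314326-84314375 on the plus strand, Tcea3 chr5:153760332-153760381 on the plus strand, Trim72 chr1:192044050-192044099 on the plus strand, Xirp2 chr3:72534092-72534141 on the plus strand. Their matches begin between 150 (Trim72) and 7 (Lrrc39) bases before the start. The genes code for a muscle ankyrin-repeat protein of the SOCS-box family (Asb18), small heat shock proteins (Hspb3 and Hspb7), an M-band protein (Lrrc39), the glycogen-targeting subunit of protein phosphatase 1 in muscle (Ppp1r3a), a small muscle protein (Smpx), a striated-muscle kinase (Speg), a transcription elongation factor (Tcea3), a membrane-repair protein (Trim72) and a Xin-repeat protein of the intercalated disc (Xirp2). Their levels ran from 15.04 CPM (Hspb3, 2.45 CPM in the other barcodes) to 550.1 CPM (Speg, 45.5 CPM). The ratios ran from 4.37 for Tcea3 (51.2 against 11.7 CPM) to 15.96 for Asb18 (415.7 against 26.1 CPM). Without the listed fuel, sarcomere, ERR and choosing genes the MEF2 share was 2.16%, or 10 of 463 windows. The remaining motifs searched, on both strands, differed less, as a ratio of shares, between those 463 and the 9133 windows. The GATA letters AGATAA lay in 8.64 and 6.01%, the TEAD letters GGAATG in 12.5 and 11%, the T-box letters AGGTGT in 14.3 and 10.7%, the ERR letters AAGGTCA in 3.89 and 2.77% and the SRF-bound CArG element in 1.30 and 1.24%. A match is a description of letters and not a bound site.

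The threshold on the choosing genes fixes how the groups differ in them. Their summed share had a median of 2.37% in the cardiomyocyte nuclei (5th to 95th percentile 1.37 to 3.33%) and of 0.101% in the others, of which 84.9% nevertheless held at least 1 such UMI and which reached 2.02% where the whole rule was not met. Just outside the threshold, between 0.5 and 1%, lay 117 barcodes. Their other cardiomyocyte markers made up 1.62% and their endothelial markers 0.523% of UMIs. Just inside, between 1 and 1.5%, lay 233 barcodes, of which 232 met the whole rule, with 2.51 and 0.238%. Between 2 and 3% the values were 3.33 and 0.0276%. The barcodes next to the threshold on either side thus carried both kinds of marker.

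**Figure D1:**
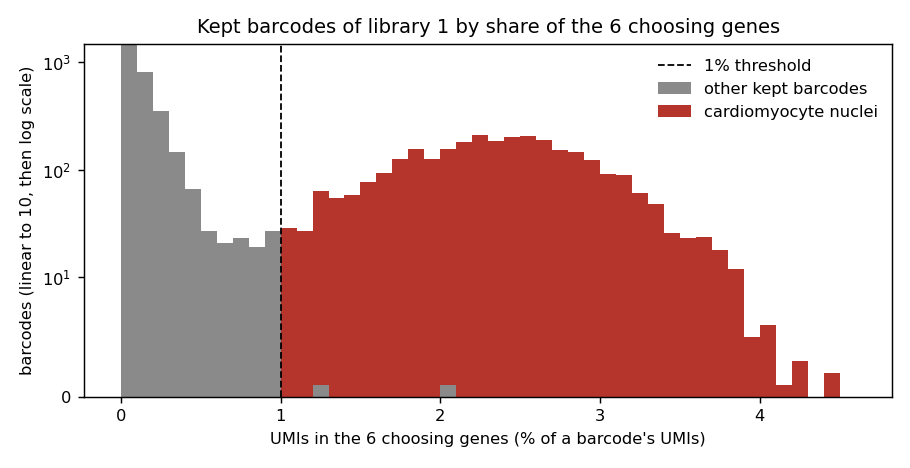
Kept barcodes of library 1 (vertical axis, linear to 10 and then on a log scale) by the percentage of their UMIs in the 6 choosing genes (horizontal axis, bins of 0.1%), with cardiomyocyte nuclei in red and other barcodes in grey. The 2 groups have medians of 2.37 and 0.101%, and only 117 barcodes lie between 0.5 and 1%.

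The label held on markers that the rule did not name. All 15 further cardiomyocyte markers found in the files, among them troponins and Casq2, were higher, and together they took 3.23% of UMIs against 0.318% in the others. Endothelial markers took 0.0533 against 0.722%, mural markers 0.0163 against 0.121% and macrophage markers 0.0134 against 0.0559%. Fibroblast markers took 0.382 against 0.658%, of which the laminin gene Lama2, also a costamere gene, was the largest share at 3448 CPM in the cardiomyocyte nuclei. No endothelial, fibroblast, mural or macrophage marker was at 0 in the cardiomyocyte nuclei as a group. Their part in the values below was not tested. Of the 2969 nuclei, 590 had at least 3 UMIs of another list's markers after markers like Lama2 were left out, and the 2379 without them are called unmixed below. Depth also differed, with a median of 2816 UMIs and 1317 genes per cardiomyocyte nucleus against 1535 and 1019. Library 1 shared 114 barcode sequences with the other libraries, 39 of them in cardiomyocyte nuclei.

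The other barcodes were divided by marker counts into endothelial (1168), fibroblast (1378), mural (160) and macrophage (68) classes, and 215 had no class. A class made this way is a range of marker counts. In all, 862 genes (7.02% of those measured) were at least 2-fold higher in the cardiomyocyte nuclei than in each of the 4 classes. Counts of list genes above each class are to be read against this share.

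The highest non-contractile genes were spread over control of the action potential, signalling and protein turnover. Rnf207, a RING finger protein known for its part in cardiac repolarisation, stood at 812.6 CPM (95% interval 794.8 to 830.7) against 44.8 CPM, a ratio of 18.2 (16.03 to 20.6). After each barcode was thinned to 1000 UMIs, 55.1% of the cardiomyocyte nuclei and 3.55% of the others held an Rnf207 UMI, where the unthinned shares were 85.3 and 5.82%. Tnni3k, a cardiac kinase that binds troponin I, reached 1790 CPM (ratio 16), and Mylk3, the cardiac myosin light chain kinase, 1154 CPM (15.6). Pde4dip, the anchoring protein myomegalin, was the most abundant of the 20 genes with the largest difference, at 3373 against 276.2 CPM. Those 20 also included Myocd, Macrod1, Rbfox1, Kcnd3, Kcnq1, Casq2, Wnk2, Fsd2, Coro6, Asb2, Fgf1, Txlnb, Kcng2, Asb18 and Myo18b. In none of the 4 classes did any of these 20 genes reach the cardiomyocyte level. They were picked for their difference from the same barcodes, so this largely follows from the choice.

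The 10 genes lowest in the cardiomyocyte nuclei were led by endothelial-class genes. Nrg1, the ligand of the ERBB receptors, stood at 6.14 against 241.4 CPM and at 522.3 CPM in the endothelial class. Dnm3, Adgrl4, Fli1, Thsd7a, Ptprb, Itpkb, Cyyr1 and Dach1 were likewise highest in that class, with Dach1, a transcription cofactor, at 3660 CPM there against 136.3 CPM. Reln, a secreted protein of lymphatic endothelium and neurons, was at 241.6 CPM in the other barcodes together and at most 26.7 CPM in any of the 4 classes, so it lay mainly in barcodes with no class.

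**Figure D2:**
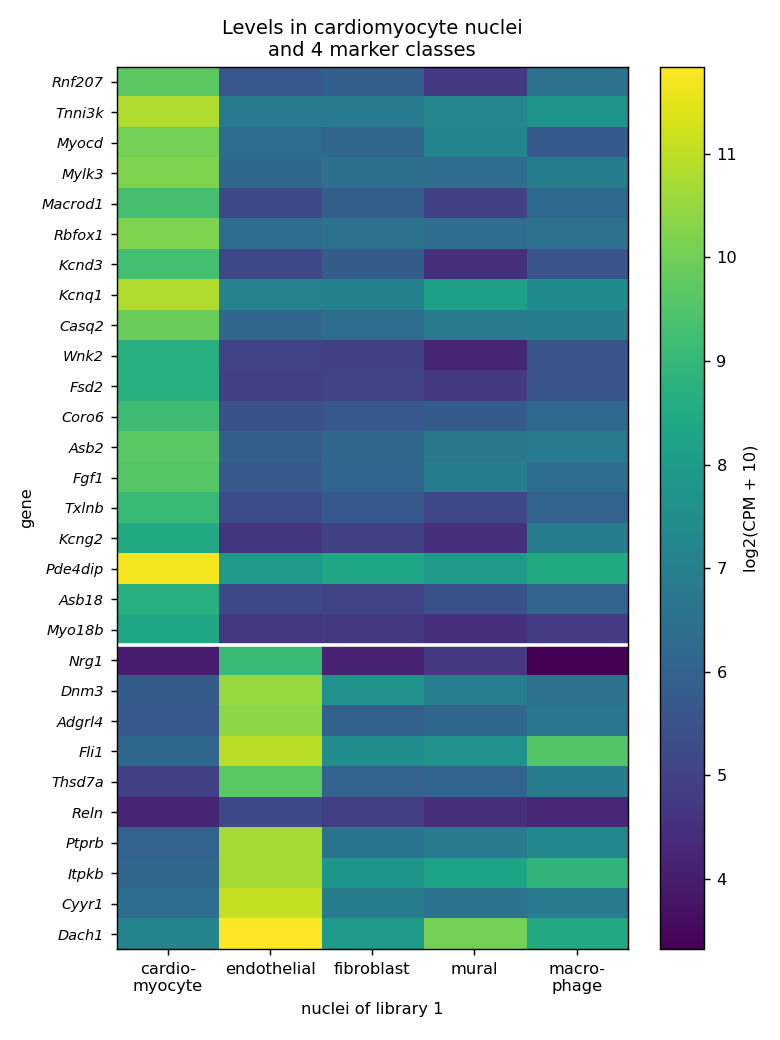
Levels as log2(CPM + 10) (colour) of 19 of the 20 most raised and the 10 most lowered named genes (rows, split by a white line) in cardiomyocyte nuclei and the 4 marker classes of library 1 (columns). The upper genes are brightest in the cardiomyocyte column, with Pde4dip at 3373 CPM, and the lower 10 are brightest in the endothelial column, though Reln only at 26.7 CPM.

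Among 23 measured cardiac transcription factors 12 were higher and 1 lower, with a list median of 0.62. Myocd, which codes for myocardin, stood at 1052 against 66.3 CPM (ratio 15.9, 14.3 to 17.6), and 54.9% of thinned cardiomyocyte nuclei held a UMI of it against 6.06% of the others. The T-box factor Tbx5 was lower in level, 79.7 against 5.25 CPM (15.2), as was the ventricular homeobox factor Irx4, 51.7 against 3.15 CPM (16.4). Family members shared with other cells did not follow this pattern. Mef2c, a MEF2 factor, stood at 374.8 CPM against 1201 CPM in the endothelial class, and Foxp1, a forkhead repressor, at 344.3 CPM against 1364 CPM there.

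Chromatin regulators and clock genes lay near the all-gene median. Of 24 chromatin regulators 2 were higher and 6 lower (median -0.46). The methyltransferase gene Smyd2 (124.2 against 24.3 CPM, ratio 5.11) and the class IIa deacetylase gene Hdac5 (60.7 against 27.1 CPM, 2.24) were the 2 higher ones, whereas Hdac7 (50.5 against 164.9 CPM) and the Polycomb methyltransferase gene Ezh1 (29.2 against 102.5 CPM) were the lowest. Of 17 clock genes 3 were higher and 4 lower (median -0.45). The clock output factors Dbp (107.1 against 34.3 CPM) and Nfil3 (32.4 against 5.94 CPM) and the repressor Ciart (6.45 against 0.699 CPM) were higher, and the activator Arntl (31.9 against 90.4 CPM) and its regulator Rora (79.7 against 231.8 CPM) were lower. Both medians turned positive after scaling to the median gene, to 0.18 for chromatin regulators and 0.041 for clock genes.

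RNA-binding and splicing factors lay on both sides. Of 18, 4 were higher and 2 lower (median 0.03, which was -0.04 with free RNA subtracted). Rbfox1, which sets muscle and neuronal exons, stood at 1155 against 78.0 CPM (14.8), and 63.1% of thinned cardiomyocyte nuclei held it against 7.23% of the others. Rbm24 (253.6 against 21.0 CPM) and the muscle SR-protein kinase Srpk3 (191.8 against 15.4 CPM) were each about as far apart, with ratios of 12.1 and 12.5. The muscleblind gene Mbnl2 was at 418.9 against 794.3 CPM, and Zcchc24 was the lowest of the list at 77.3 against 297.7 CPM.

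**Figure D3:**
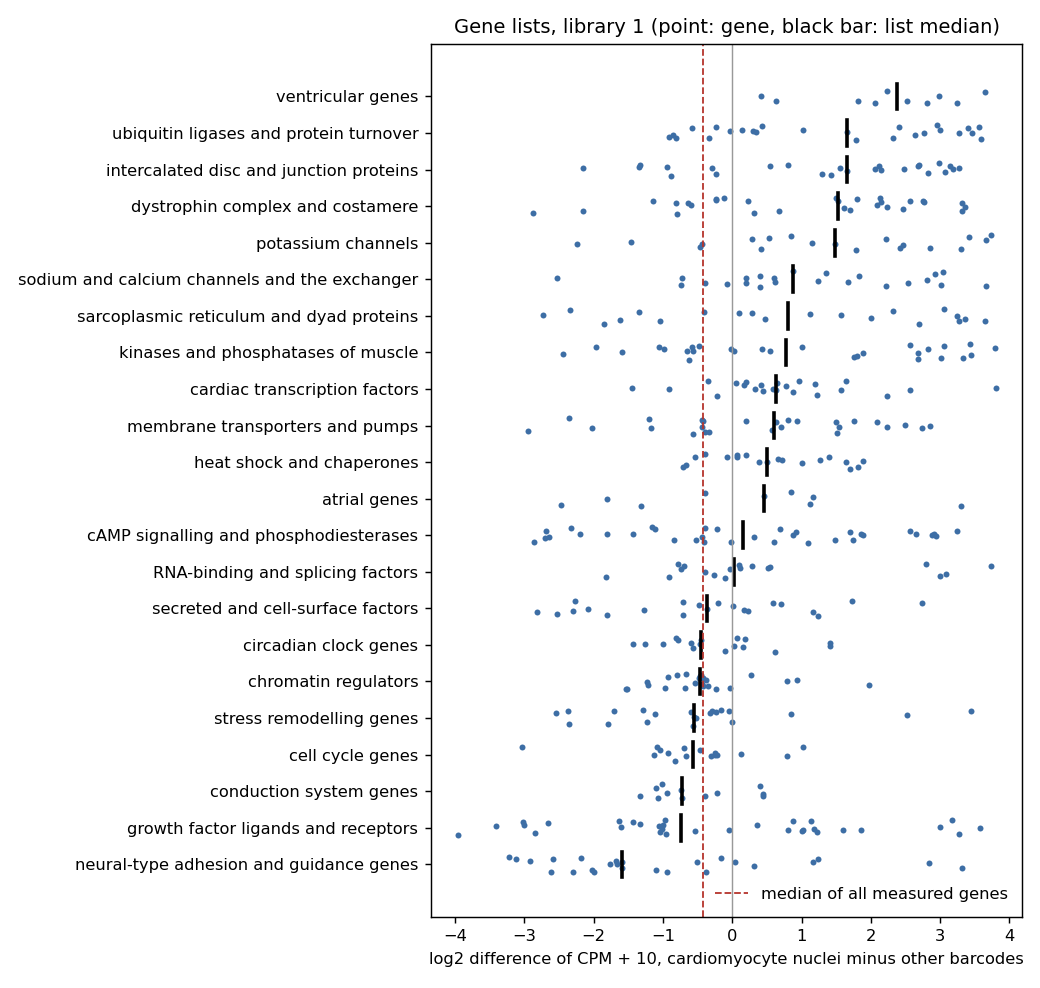
Log2 difference of CPM + 10 between cardiomyocyte nuclei and other barcodes of library 1 (horizontal axis) for each measured gene (point) of 22 lists (rows), with the list median as a black bar and the all-gene median of -0.42 as a red dashed line. Ventricular, ubiquitin, intercalated disc, dystrophin and potassium channel lists have medians of 1.48 or more, and the neural-type adhesion list has the lowest at -1.60.

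Potassium channels end the cardiac action potential. Of 19 potassium channel genes 14 were higher and 3 lower (median 1.48, 12 of the 19 above each class). Kcnq1, the slow delayed rectifier, stood at 1820 against 135.3 CPM (ratio 13.5, 12.5 to 14.5). Kcnd3, a transient outward channel, stood at 619.7 against 37.6 CPM (16.5), and the 2-pore channel gene Kcnk3 at 190.2 against 8.74 CPM (21.8, 16.4 to 29.4). Thinned shares were 78.5, 41.9 and 16.8% of cardiomyocyte nuclei for Kcnq1, Kcnd3 and Kcnk3, against 11.9, 3.48 and 0.770% of the others. The 2 lowest channel genes belonged to other classes. Kcnj8, a pore subunit of vascular KATP channels, was at 5.83 CPM against 425.7 CPM in the mural class, and Kcnt2 at 13 CPM against 1645 CPM in the macrophage class.

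Of 23 sodium and calcium channel and exchanger genes 13 were higher and 4 lower (median 0.87). The L-type calcium channel pore gene Cacna1c (1498 against 173.1 CPM, 8.65) and its beta subunit gene Cacnb2 (1694 against 201.6 CPM, 8.40) were among the higher genes, and both were also present in the mural class, at 493.2 and 417.3 CPM. Scn7a, an atypical sodium channel, was at 13.7 CPM against 232.5 CPM in fibroblast-class barcodes. Of 20 genes of the sarcoplasmic reticulum and the dyad, where calcium channels face the release channels, 11 were higher and 6 lower (median 0.80). The calcium-binding protein gene Casq2 (966.1 against 67.8 CPM, 14.2), the junctophilin gene Jph2 (516.2 against 41.3 CPM, 12.5) and the sarcalumenin gene Srl (238.6 against 15.7 CPM, 15.2) had the largest differences. The inositol trisphosphate receptor gene Itpr2 was at 36.3 against 297.4 CPM and Bin1, which shapes membranes and T-tubules, at 8.80 against 85.0 CPM.

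Signalling genes differed by family member. Of 34 genes of cAMP signalling 15 were higher and 10 lower (median 0.15). Akap6, which anchors protein kinase A at the nuclear envelope, stood at 1924 against 193.5 CPM (9.94), the Popeye-domain gene Popdc2 at 181.0 against 14.9 CPM (12.2) and the alpha-1A adrenergic receptor gene Adra1a at 623.4 against 74.1 CPM (8.41). Pde10a (18.1 against 193.5 CPM) and Pde3b (22.2 against 200.2 CPM), which code for cyclic nucleotide phosphodiesterases, were the lowest, with Pde10a highest in the fibroblast class at 334.2 CPM and Pde3b in the macrophage class at 480.6 CPM. The median of this list was -0.14 when the 228 nuclei without 3 UMIs of any other marker list were used.

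Growth factor genes lay on both sides. Of 32, 13 were higher and 17 lower (median -0.75). Fgf1, a fibroblast growth factor without a classical signal peptide, stood at 765.6 against 54.9 CPM (ratio 13.9), and the insulin receptor adaptor gene Grb14 at 340.2 against 26.4 CPM (12.9). Erbb4, the neuregulin receptor gene, was at 355.9 against 30.8 CPM (11.6), whereas its ligand gene Nrg1 lay in the endothelial class as given above. Vegfc, a lymphatic growth factor gene, was at 19 CPM against 513.4 CPM in the endothelial class. Of 28 muscle kinases and phosphatases 14 were higher and 7 lower (median 0.77). Besides Mylk3, the alpha kinase genes Alpk2 (257.4 against 14.7 CPM, 17.5) and Alpk3 (371.2 against 25.2 CPM, 14.7) had the largest differences. The smooth muscle light chain kinase gene Mylk was at 29.4 CPM against 800.9 CPM in the mural class, and Camk1d at 14.9 CPM against 665.4 CPM in the macrophage class.

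Genes for cell contacts and the membrane skeleton had some of the highest list medians. Of 25 intercalated disc and junction genes 16 were higher and 4 lower (median 1.65). The desmoplakin gene Dsp stood at 474.4 against 43.5 CPM (10.9), the delta-sarcoglycan gene Sgcd at 1572 against 169.9 CPM (9.25) and Xirp2 at 317.1 against 23.8 CPM (13.3). The beta-catenin gene Ctnnb1, at 13.5 against 50.0 CPM, was among the 4 lower genes. Of 29 dystrophin complex and costamere genes 16 were higher and 4 lower (median 1.53). Dystrophin (Dmd) was the most abundant of them, at 9906 against 960.5 CPM (10.3), and the thinned share with a UMI was 99.3% against 56.1% of the others. The spectrin gene Sptb (252.2 against 16.4 CPM, 15.3) and the alpha-sarcoglycan gene Sgca (311.2 against 22.4 CPM, 13.9) followed. The syntrophin gene Sntb2 (58.2 against 493.2 CPM) and the dystrobrevin gene Dtnb (34.8 against 188.5 CPM) were the lowest members, both highest in the fibroblast class at 571.7 and 338.3 CPM.

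Protein turnover genes were mostly higher, at 14 of 25 with 1 lower (median 1.66, 13 of the 25 above each class). The SOCS-box ligase subunit genes Asb2 (808.7 against 58.2 CPM, 13.9) and Asb18 (415.7 CPM, 15.96) and the muscle RING finger gene Trim63 (954.4 against 77.5 CPM, 12.3) led the list. Trim24 (68.2 against 137.2 CPM) was the 1 lower gene, and Itch was at 83.8 against 159.4 CPM. Of 19 heat shock and chaperone genes 9 were higher and 1 lower (median 0.50). The small heat shock genes Cryab (218.3 against 51.9 CPM, 4.20) and Hspb8 (67.6 against 14.0 CPM, 4.84) and their co-chaperone gene Bag3 (209.5 against 52.3 CPM, 4.01) were higher. Hspb1, at 10.03 against 21.9 CPM, was the lower one.

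Of 26 membrane transporters and pumps 12 were higher and 7 lower (median 0.60). The anion exchanger gene Slc4a3 (499.7 against 60.7 CPM, 8.24), the glutamine carrier gene Slc38a1 (295.3 against 35.8 CPM, 8.24) and the magnesium carrier-family gene Slc41a3 (137.4 against 16.3 CPM, 8.45) had the largest differences. The water channel gene Aqp1 was at 19.7 CPM against 428.3 CPM in the endothelial class, and the plasma membrane calcium pump gene Atp2b4 at 8.80 against 86.7 CPM.

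The neural-type adhesion and guidance list had the lowest median, -1.60, with 4 of 25 higher and 17 lower. The IgLON adhesion gene Lsamp (415.1 against 32.9 CPM, 12.6), the synaptic adhesion gene Lrrtm3 (130.9 against 9.62 CPM, 13.6) and the semaphorin gene Sema5a (185.1 against 73.1 CPM, 2.53) were higher. In the mural class Sema5a stood above the cardiomyocyte nuclei, at 215.0 CPM. Sema3d, a secreted semaphorin gene, was at 9.11 CPM against 203.3 CPM in the endothelial class. Of 21 secreted and cell-surface factors 6 were higher and 10 lower (median -0.36, which was 0.16 after scaling to the median gene). Corin, the protease that activates natriuretic peptides, stood at 403.7 against 52.1 CPM (7.75), Tmem179 at 30.2 against 2.10 CPM (14.4) and the clusterin gene Clu at 125.9 against 47.9 CPM (2.63). The chemokine gene Cxcl12 (8.70 against 97.7 CPM) and the follistatin-like gene Fstl1 (25.2 against 238.1 CPM) were the lowest.

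Ventricular genes were higher throughout and atrial genes were divided, both against the other barcodes of library 1. No cardiomyocytes of a known chamber were compared, so these counts do not assign a chamber. All 10 measured ventricular genes were higher (median 2.37), a list that includes the contractile genes Myl2, Myl3 and Myh7. Fhl2, a LIM-domain protein, stood at 1809 against 135.0 CPM (13.4), Myh7 at 827.0 against 96.3 CPM (8.59) and the gap junction gene Gja1 at 424.9 against 94.8 CPM (4.48). Pln (1603 CPM), Myl2 (738.6 CPM), Myl3 (902.4 CPM), Lbh (246.0 CPM), Irx4, Hey2 (12.7 CPM) and the channel subunit gene Kcnip2 (3.99 CPM, from 39 UMIs) made up the rest. Hey2, a Notch-response repressor, had a difference of 0.62 that was -0.21 in the 228 nuclei without 3 UMIs of any other marker list. Of 15 atrial genes found in the files 9 were measured, and of these 5 were higher and 4 lower. The unmeasured ones had too few UMIs, and 2 of the 15 gave none in the cardiomyocyte nuclei. Nppa, the atrial natriuretic peptide gene, was at only 13 CPM (10.8 to 15.5), from 127 UMIs, and 1.04% of thinned cardiomyocyte nuclei held one. Kcnj3, the acetylcholine-gated channel gene of the atrial list, was abundant at 776.7 against 69.9 CPM (11.1), and 42.5% of thinned nuclei held a UMI. Gpr22 (14.0 CPM), Dkk3 (54.2 CPM) and Clcn1 (7.37 CPM) were the other higher members, and Nr2f2 (3.79 against 66.8 CPM) and Tbx18 (5.32 against 43.9 CPM) were lower.

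Conduction system genes were mostly at low levels. Of 12, 3 were higher and 9 lower (median -0.73). The pacemaker channel gene Hcn4 gave 31 UMIs in the cardiomyocyte nuclei and 0 in the others, where a count of 0 allows up to 0.524 CPM, so no fold is given. Vsnl1 (5.32 against 1.22 CPM) and Irx3 (5.01 against 1.05 CPM) were the other 2 higher genes. Gjc1, which codes for connexin 45, was at 38.8 CPM against 548.0 CPM in the mural class. Etv1 (23.1 CPM), Cacna1g (12.8 CPM), Cacna1d (3.48 CPM), Id2 (3.38 CPM) and Tbx3 (3.17 CPM) were all below the other barcodes.

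Stress and cell cycle lists had medians close to the all-gene median of -0.42, and their lower counts stand beside 40.0% of all measured genes. Of 21 stress remodelling genes 3 were higher and 11 lower (median -0.55). Ankrd1, a titin-binding and nuclear protein gene, stood at 1088 against 90.7 CPM (12.0), Nppb, the B-type natriuretic peptide gene, at 87.5 against 6.99 CPM (12.5), and Nppa, given above, was the other. The matrix protein gene Tnc (1.23 against 55.6 CPM) and the zinc finger gene Klf6 (16.5 against 126.4 CPM) were the lowest. Of 16 cell cycle genes 1 was higher and 11 lower (median -0.56). Cdk14 was the higher one, at 1661 against 812.1 CPM (2.05), and Ccnd2 stood at 56.2 against 28.2 CPM (2.00, just short of the 2-fold rule) and E2f3 at 52.1 against 46.7 CPM. Cdk6, a G1 kinase gene, was at 38.5 against 386.6 CPM, and the inhibitor gene Cdkn1b at 23.5 against 63.6 CPM.

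One feature without a gene symbol, AC134224.3, took 21.7% of all UMIs of the cardiomyocyte nuclei against 8.12% of the others. Its share was 5.93% in the endothelial, 10.1% in the fibroblast, 11.8% in the mural and 6.25% in the macrophage class. Among single cardiomyocyte nuclei it ranged from 11.7% (5th percentile) over 21.1% (median) to 31.6% (95th percentile). The files do not pair the name with a gene. Since CPM are shares of a total, a feature of this size lowers the level of every other gene: without it and the other AC134224 features in the totals 1761 genes were higher and 3989 lower. A second feature of this kind, AABR07052585.1, was 22.8-fold higher at 1988 against 87.2 CPM. Both are mentioned for their size and were picked after their values were seen.

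For most genes the spread among the cardiomyocyte nuclei was close to counting noise. With few UMIs per nucleus it stays close to that even where levels vary, so little variation was not shown. Over 5666 genes with at least 200 UMIs, the variance of depth-corrected residuals, which is 1 for pure counting noise plus a fixed small overdispersion, had a median of 1.13 and exceeded 2 in 119. The 10 most variable named genes fell into 2 kinds. Ebf1, Dach1, Gpc6, C7, Cyyr1, Eln, Slfn4 and Calcrl were all lower in the cardiomyocyte nuclei than in the others, and in the 2379 unmixed nuclei the variance went from 5.66 to 1.36 for Ebf1, from 5.38 to 1.42 for Dach1, from 4.00 to 1.69 for Gpc6 and from 3.94 to 1.51 for C7. The remaining 4 had fewer than 200 UMIs there. Ebf1 and Cyyr1 are themselves among the markers used to choose the unmixed nuclei, so their fall there follows from that choice. Ankrd1 and Flrt2, an adhesion molecule of the FLRT family, kept their variance, at 6.01 and 5.94 for Ankrd1 and 6.22 and 6.72 for Flrt2. Ankrd1 was higher in the cardiomyocyte nuclei than in the others, whereas Flrt2 was lower, at 49.2 against 188.5 CPM (ratio 0.261). In the endothelial class Flrt2 stood at 185.2 CPM and in the fibroblast class at 159.8 CPM.

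Flrt2 was held by few nuclei, 5.76% of all 2969. Its residuals went with those of Sema5a (Pearson r = 0.48 over 2379 unmixed nuclei), and Rbms3 went with Sema5a (0.40). These are correlations across nuclei of 1 library in sparse counts, which share their depth, and are given as description. A split made after the values were seen put 38 unmixed nuclei with at least 2 Flrt2 UMIs (1.60%, median 4202 UMIs) beside 2281 with none (median 2629 UMIs). Sema5a stood at 1386 CPM in the 38 nuclei and 157.5 CPM in the 2281 (ratio 8.80, 7.64 to 10.1), and 89.5% of the 38 held a UMI of it. The RNA-binding protein gene Rbms3 was at 1572 against 358.9 CPM, the choline transporter-like gene Slc44a2 at 986.1 against 230.7 CPM, the receptor kinase gene Grk5 at 630.0 against 143.9 CPM and the adhesion gene Ncam1 at 252.0 against 55.2 CPM. Ankrd1 was at 3216 against 1108 CPM, Myh7 at 1808 against 831.6 CPM and Nppb at 169.8 against 91.0 CPM.

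In the same 38 nuclei Myh6 was at 2219 against 6812 CPM, Asb2 at 334.2 against 863.0 CPM, Rnf207 at 405.4 against 871.2 CPM and Corin at 180.8 against 416.2 CPM. The 60 nuclei with a single Flrt2 UMI lay between the 2 for Sema5a (354.4 CPM), Rbms3 (564.8 CPM) and Slc44a2 (470.7 CPM). They also did for Grk5, Ncam1, Ankrd1, Myh6, Rnf207 and Myh7, the last at 880.4 CPM and so close to the nuclei with none. For Nppb (83.1 CPM), Asb2 (863.8 CPM) and Corin (420.8 CPM) they did not lie between and were close to the nuclei with none. Several of the genes higher in the 38 nuclei were also present in other cells of the library. Rbms3 stood at 1580 CPM in the other barcodes and at 2560 CPM in the fibroblast class, Grk5 at 670.8 CPM and at 826.2 CPM in the mural class, and Flrt2 itself at 188.5 CPM in the other barcodes. Sema5a, Slc44a2 and Ncam1 were lower in the other barcodes together, at 73.1, 110.8 and 19.6 CPM. By class they were highest at 215.0 CPM (Sema5a, mural), 156.0 CPM (Slc44a2, mural) and 35.55 CPM (Ncam1, fibroblast). The mural level of Sema5a was above that of the cardiomyocyte nuclei without Flrt2. All nuclei of the split had been chosen for few UMIs of other cell types' low markers, so those markers are not compared, and the part of other cells' RNA in these values was not tested. The choosing genes Ryr2 (10513 against 12143 CPM) and Rbm20 (6163 against 6298 CPM) differed little, and Myom2 was at 569.7 against 1373 CPM. The 38 nuclei had more UMIs than the rest, and the part of depth in these values was not tested.

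**Figure D4:**
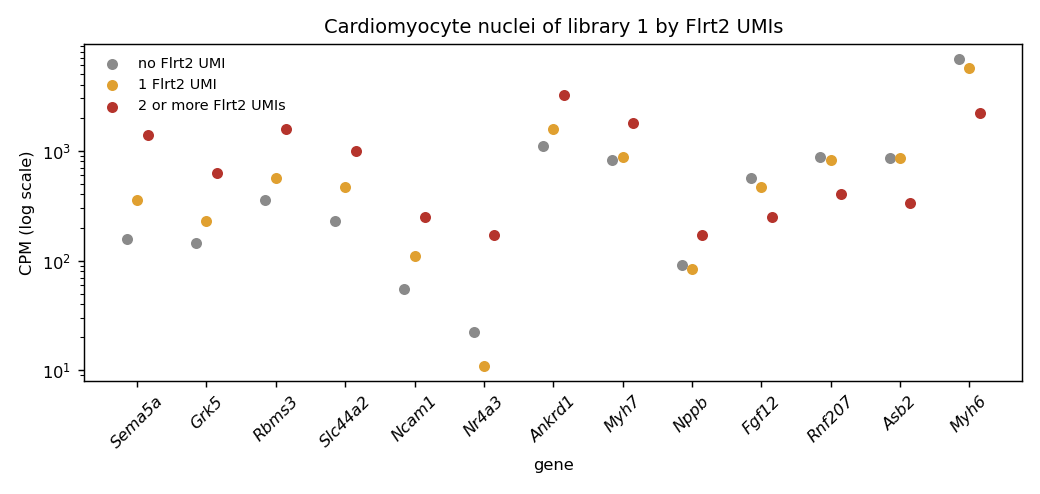
Summed CPM (vertical axis, log scale) of 13 genes (horizontal axis) in unmixed cardiomyocyte nuclei of library 1 with no, 1 or at least 2 Flrt2 UMIs; no error is shown. Sema5a stands at 157.5 CPM without Flrt2 and at 1386 CPM with at least 2 UMIs, and Myh6 at 6812 and 2219 CPM.

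Depth was tied to some levels when the cardiomyocyte nuclei were ranked by UMIs and cut into 3 sets. In the shallowest 990 (median 1609 UMIs) Rnf207 stood at 1200 CPM, and in the deepest 990 (median 5030 UMIs) at 666.6 CPM. Trim63 went the same way, from 1189 to 861.4 CPM. Kcnj3 went the opposite way, from 506.0 to 906.9 CPM, as did Hs3st5, from 451.3 to 648.9 CPM, and Dmd, from 8205 to 10762 CPM. Kcnd3 stood at 616.5 and 620.2 CPM.

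The same rule found 282 cardiomyocyte nuclei in library 2 (10.4% of kept barcodes), 546 in library 3 (3.65%) and 510 in library 4 (9.38%). Of 12475 genes with at least 30 UMIs over the 4 sets, 151 (1.21%) were at least 2-fold higher in library 1 than in each of the others and 2624 (21.0%) were at least 2-fold lower than in each. Library 1 lay 0.28, 0.29 and 0.32 below libraries 2, 3 and 4 at the median gene, on the log2 scale. Each library is 1 unassigned sample, and these values describe 4 libraries.

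Among genes at least as high in cardiomyocyte nuclei as in the other barcodes of libraries 2 to 4, those highest in library 1 included Hs3st5, a heparan sulfate sulfotransferase gene. It stood at 585.3 CPM in library 1 and at 116.1, 115.7 and 99.7 CPM in libraries 2 to 4. Fbxw10, an F-box gene, stood at 80.8 CPM and at 2.32, 9.37 and 5.39 CPM, the first of these from 2 UMIs. Ankrd9 stood at 98.8 CPM and at 17.4, 10.2 and 15.8 CPM. Ky, a muscle protein gene, the receptor kinase gene Ros1 and the mitochondrial acetate enzyme gene Acss1 were the other 3 (145.3, 234.4 and 294.9 CPM in library 1, with at most 39.7, 76.6 and 105.6 CPM elsewhere). These 6 genes were picked for lying furthest above the other libraries, so the separate counting intervals of library 1 follow from that choice.

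Among the 6 genes chosen in the opposite direction Nppa differed most. It stood at 13 CPM in library 1 and at 299.5, 529.5 and 454.1 CPM in libraries 2 to 4, where the other barcodes of the same libraries held 264.7, 294.2 and 285.7 CPM. Tgfb2, a transforming growth factor gene, stood at 25.1 CPM and at 283.3, 401.2 and 295.5 CPM. Xirp2 stood at 317.1 CPM and at 922.9, 2276 and 2195 CPM, and the diacylglycerol kinase gene Dgki at 36.4 CPM and at 219.4, 149.9 and 173.5 CPM. Nppb stood at 87.5 CPM and at 401.7, 262.3 and 280.6 CPM, and Ankrd1 at 1088 CPM and at 2655, 2693 and 2665 CPM. The other barcodes of libraries 2 to 4 also held these genes. Their levels were 229.8, 191.1 and 159.2 CPM for Tgfb2, 870.0, 590.1 and 1205 CPM for Xirp2, and 113.9, 133.5 and 81.5 CPM for Dgki. They were 251.7, 92.8 and 111.4 CPM for Nppb and 901.7, 679.1 and 784.3 CPM for Ankrd1. The other barcodes of library 1 held 2.80 CPM of Nppa, 99.0 CPM of Tgfb2, 23.8 CPM of Xirp2, 6.99 CPM of Nppb and 90.7 CPM of Ankrd1. For these genes library 1 was thus the lowest outside the cardiomyocyte nuclei as well. In the cardiomyocyte nuclei libraries 2 to 4 lay close together for Ankrd1, whereas library 2 lay below libraries 3 and 4 for Xirp2.

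**Figure D5:**
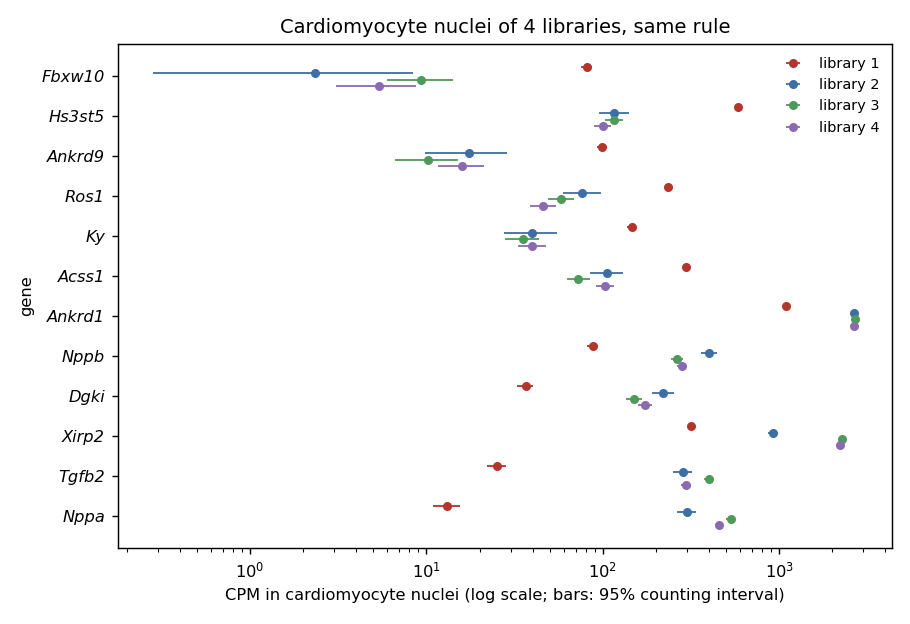
CPM in cardiomyocyte nuclei (horizontal axis, log scale) of the 12 genes with the most separate levels in library 1 (rows), by library (colour), with 95% counting intervals as bars. The 6 upper genes are highest in library 1 and the 6 lower ones lowest, from Fbxw10 at 80.8 CPM against at most 9.37 CPM to Nppa at 13 CPM against at least 299.5 CPM.

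By list, 18 of 22 stress remodelling genes were at least 2-fold lower in library 1 than in each other library, against 21.0% of all genes, with median differences of -1.30, -1.35 and -1.42. The immediate early genes Fos, Jun, Egr1 and Atf3 were among the 18. These values are for cardiomyocyte nuclei, and the lists were not compared between libraries in the other barcodes. Of 20 heat shock and chaperone genes 8 were lower in the same way, and of 19 cell cycle genes 10. None of 19 potassium channel genes was lower and 3 were higher, and of 25 protein turnover genes 2 were higher, Asb2 and Asb18. Over all genes 1.21% were higher in this way. Asb2 stood at 808.7 CPM in library 1 and at 332.0, 283.1 and 279.3 CPM in libraries 2 to 4. Rbfox1 stood at 1155 CPM in library 1 and at 599.0, 306.7 and 291.4 CPM in the others, whereas Myocd, at 1052 CPM, lay between the 799.9, 1075 and 996.2 CPM of the others.

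Markers of other cell types moved with these values. In the cardiomyocyte nuclei 12 of 14 macrophage, 9 of 12 fibroblast, 6 of 13 endothelial, 5 of 5 neutrophil and 3 of 4 erythroid markers were at least 2-fold lower in library 1 than in each of the others. The share over all genes was 21.0%. Mural markers, at 3 of 12, lay near it. The rest were 4 of 8 lymphatic, 2 of 5 Schwann, 2 of 3 lymphocyte and 1 of 2 epicardial and adipocyte markers. Fibroblast markers summed to 0.382% of UMIs in library 1, within the 0.325, 0.423 and 0.339% of libraries 2 to 4. Most of the library 1 sum was the costamere gene Lama2, at 3448 CPM, so the sum says little about the other fibroblast markers. The median log2 difference of the 12 fibroblast markers was -1.271, -2.035 and -1.676 for library 1 minus libraries 2, 3 and 4. Macrophage markers summed to 0.0134% of UMIs in library 1 and to 0.0655, 0.166 and 0.0829% in libraries 2 to 4, and erythroid markers to 0.00404% and to 0.0221, 0.0823 and 0.210%. The median mitochondrial share was 0.0446% in library 1 and 0.187, 0.710 and 0.686% in libraries 2 to 4, and AC134224.3 took 21.7% against 10.6, 11.2 and 9.48%. The part of these differences in the values between libraries was not tested.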

How the data were processed

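Single-nucleus RNA of rat heart was measured as UMI counts per gene and barcode, and the authors deposited 1 matrix of raw counts for all 4 samples. The version in it is cellranger 5.0.1, per the file headers. The submitters' processing notes name Cell Ranger 6.1.1, Seurat and rn7. Contig names in the files belong to an older assembly, so the build of the counts is not settled. Rows of the same symbol were summed. Members and gene lists were chosen with earlier results of these data known. Of 649 symbols in the described and marker lists, 34 are not analysed here, and a list of nuclear noncoding RNAs had no measured member.

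Library 1 held 18465378 UMIs, of which 10011329 lay in the cardiomyocyte nuclei and 5728579 in the other kept barcodes. With 1 library per group no count model was fitted. All intervals are at 95%: exact Poisson for a CPM, Clopper-Pearson for a share, and for a ratio the binomial interval given the sum of both counts. Log2 differences used a pseudocount of 10 CPM. Residuals were Pearson residuals of a negative binomial with theta 100. Doublets were kept and scored with scrublet in scanpy 1.11.5 as an alternative. The ratio and its interval were checked on simulated counts that held counting error only. That check says nothing about variation between nuclei or mixed barcodes.

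Leaving out fuel, sarcomere, ERR and choosing genes, contig names and mitochondrial genes, the text names the 20 largest differences (at least 200 UMIs), the 10 most negative, the 3 highest and 2 lowest of each list, the 10 most variable genes, the 6 highest and 6 lowest against libraries 2 to 4, and all chamber and conduction genes with at least 30 UMIs. The marker, choosing and contig features, the genes of the Flrt2 split, those named with the promoters, and Fos, Jun, Egr1 and Atf3 fall outside that rule and were picked after their values were seen. A few genes that the rule takes are not reported here.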

Additional observations from a re-analysis of the deposited data

How the results depend on the processing

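The number of cardiomyocyte nuclei was 3071 with a minimum of 500 UMIs, 2128 with 2000 UMIs, 2160 with at least 2% of UMIs in the choosing genes, 2764 without the 284 highest scrublet scores, 228 without nuclei with 3 UMIs of any other marker list, and 2379 when only markers low in cardiomyocyte nuclei counted, an alternative chosen after seeing the data. Scaling to the median gene gave 2518 higher and 2890 lower genes, and no filter on low counts gave 3177 and 8150. All other alternatives kept both counts within 1.5 times the values reported, free RNA included (1645 and 6677), which was estimated at 44.6% of the nuclei's UMIs from all other-type markers and at 17.1% from the low ones. Of the 153 named genes 1 called higher or lower changed sign, Hey2, at -0.21 in the 228 nuclei, where the cause was not tested. No list median of at least 1 in size did so. Of the 2275 values of named genes and list medians under other settings, 883 moved by more than their counting interval. Named genes moved most often with scaling to the median gene (133 of 153) and with free RNA subtracted (121 of 153). No paired analysis was possible because each group has 1 sample and no barcode suffix is tied to one. Depth limits the small classes most: a count of 0 allows up to 27.7 CPM in the macrophage and 12.6 CPM in the mural class.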
